A study of Homo sapiens with 32 samples.

Results

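The 37 genes described here encode aminoacyl-tRNA synthetases, the enzymes that attach each amino acid to its transfer RNA. They were found by name among the 62703 gene identifiers of the count tables: a single-letter amino acid code followed by ARS1 or ARS2, together with EPRS1, FARSA and FARSB. By the same names they divide into 20 genes for cytosolic enzymes (ending in 1, with EPRS1, FARSA and FARSB) and 17 for mitochondrial enzymes (ending in 2). All 37 were present in the tables of total, nuclear and cytoplasmic RNA. The series measured poly(A) RNA of HEK293T cells, a transformed human embryonic kidney line, after CRISPR knockout of one of the genes IGF2BP1, IGF2BP2 and IGF2BP3. Non-integrating plasmids carrying guides against a gene together with GFP were transfected transiently, and a single clone per gene was used. The control received a guide without a target in mammalian genes; whether it is a clone or a pool is not given in the labels. No further treatment was applied to any group, so knockout and control differ by label in the targeted gene alone, and other differences of a clone cannot be told apart from it. Per RNA kind there were 4 libraries of the control (batches 1 to 4), 2 libraries of the IGF2BP1 knockout (batches 1 and 2) and 2 each of the IGF2BP2 and IGF2BP3 knockouts (batches 3 and 4). Cytoplasmic RNA of the IGF2BP3 knockout had 2 more libraries, in batch 5, without a control. Nothing in the labels says that libraries of a group came from separate cultures, so p-values measure the spread between these libraries, which may be technical.

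IGF2BP proteins bind mRNA in the cytoplasm and are known for effects on the stability, transport and translation of their targets. Cytosolic synthetases feed translation by cytosolic ribosomes, and several of them (EPRS1, IARS1, LARS1, QARS1, MARS1, KARS1 and RARS1 among them) assemble with the scaffold proteins AIMP1, AIMP2 and EEF1E1 into the multisynthetase complex. Mitochondrial synthetases are encoded in the nucleus, imported, and charge the transfer RNAs of the mitochondrial genome, which is needed to make the respiratory chain subunits encoded there. GARS1 and KARS1 each give rise to both a cytosolic and a mitochondrial enzyme, and QARS1 has no mitochondrial counterpart, because mitochondria make glutaminyl-tRNA by amidation. FARSA and FARSB are the subunits of cytosolic phenylalanyl-tRNA synthetase, and EPRS1 joins glutamyl- and prolyl-tRNA synthetase in a single protein. Many cytosolic synthetase genes are known targets of ATF4, the transcription factor of the integrated stress response, which is induced when amino acids are short or the endoplasmic reticulum is stressed.

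ATF4 binds, with a C/EBP partner, composite elements of the kind TGATGCAA, and the promoters of the synthetase genes were searched for these letters because the ATF4-linked genes moved together in the control libraries. RefSeq promoter windows (GRCh38.p14) were matched for 30 of the 37 genes, in 39 windows. In the 250 bases before the start site, on both strands, TGATGCAA was found in 2 of the 39 windows, those of AARS1 and IARS1, beside 0.772% of all 35116 promoter windows. The looser form TGATGNAA, which contains the first, was found in 4 windows (AARS1, IARS1, GARS1 and YARS2), beside 3.14% of all windows. Each match is a description of letters and not a bound site. The matching stretches are given 5′ to 3′ on the gene's strand with the motif in capitals; in AARS1, IARS1 and GARS1 it lies on the opposite strand and reads as its reverse complement.
AARS1, chr16:70289666-70289713, minus strand: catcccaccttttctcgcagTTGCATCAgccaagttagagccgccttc
IARS1, chr9:92293698-92293730, minus strand: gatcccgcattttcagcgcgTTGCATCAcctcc
GARS1, chr7:30594825-30594872, plus strand: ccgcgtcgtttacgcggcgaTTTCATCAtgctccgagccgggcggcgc
YARS2, chr12:32756067-32756114, minus strand: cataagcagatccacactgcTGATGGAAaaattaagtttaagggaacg

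HARS1 and HARS2, the cytosolic and mitochondrial histidyl-tRNA synthetases, are close paralogs that lie head to head on chromosome 5. The 84 bases between their RefSeq start sites (chr5:140691371-140691454, GRCh38.p14, printed on the plus strand, on which HARS2 is read) are shown because HARS1 and HARS2 had unlike values in the knockouts although their start sites are close. The stretch, in which neither motif was found, has a GC content of 59.5%.
HARS1-HARS2: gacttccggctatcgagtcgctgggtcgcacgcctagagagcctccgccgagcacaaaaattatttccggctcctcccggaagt
The annotated spans of the 2 genes overlap by 437 bases in GENCODE 29, and whether the authors counted by strand is not given in the sources used here. Exons of 18 members overlap an exon of a gene on the opposite strand (among them MARS1 with DDIT3, and EARS2 with UBFD1), exons of 6 overlap a gene on the same strand, and 16 overlap no other gene. Values of HARS1, HARS2 and the overlapping genes carry that uncertainty.

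Libraries held between 13689067 and 26119480 counts, in all 3 RNA kinds together. A library of total RNA (IGF2BP1 knockout, replicate 2) and a library of nuclear RNA (IGF2BP1 knockout, replicate 1) hold identical counts for all 62703 identifiers, with the same sum of 21232940. The files do not state which of the 2 labels is right, and this was not tested. Results on total and nuclear RNA of this knockout are therefore given with and without the shared library. Expression is given as CPM, the share of a TMM-scaled library scaled to a fixed total, fold changes as log2 of knockout over control from an edgeR quasi-likelihood fit with a batch term, and a gene is said to be called, to rise or to fall at a Benjamini-Hochberg adjusted p under 0.05 over all genes tested. The targeted genes were lowest in their own knockout: in total RNA IGF2BP1 was at 26.6 ± 2.04 CPM (control 472 ± 36.5), IGF2BP2 at 32.4 ± 0.477 (control 94.5 ± 16.4) and IGF2BP3 at 40.4 ± 0.75 (control 89.1 ± 3.74; SD, n = 2 and 4). The nuclear RNAs MALAT1 and NEAT1 stood at 108 ± 15.9 and 210.0 ± 33.5 CPM in nuclear control RNA and at 22.8 ± 1.92 and 122 ± 15.9 CPM in cytoplasmic control RNA, and of markers for the cell line VIM was at 717 ± 20.9, KRT18 at 45.9 ± 2.01 and the leukocyte gene PTPRC at 0.0114 ± 0.0228 CPM in total control RNA. The members are abundant: their median control level in total RNA was 146 CPM, beside 15.2 CPM for all 18745 genes tested, which gives them more counts, and so smaller errors, than most genes that make up the background shares.

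In control cells the cytosolic enzymes were the more abundant class. Per kilobase of annotated exon, the median cytosolic gene stood at 50.4 CPM in total RNA (range 10.1 to 98.7) and the median mitochondrial gene at 12.03 (range 0.64 to 89.2). EPRS1 (98.7 ± 18.3 CPM per kilobase, SD, n = 4) and IARS1, the isoleucyl enzyme (95.6 ± 15.9), led the cytosolic genes. HARS1 (15.4 ± 0.408) and CARS1, the cysteinyl enzyme (10.1 ± 3.76), were lowest among them. The length used joins all annotated exons of a gene, 7853 bases for HARS1 and 10037 for CARS1, and the order depends on it. Without division by length HARS1 (122, 117, 120.2 and 125 CPM) lay above FARSB (105, 107, 119 and 124 CPM) in each control library. The ranges of neighbours in this order overlapped in 29 of 36 adjacent pairs, so the order is coarse.

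Among mitochondrial genes IARS2 stood apart, at 89.2 ± 2.56 CPM per kilobase in total RNA, behind EPRS1 and IARS1 alone and within the range of the leading cytosolic genes. TARS2, the mitochondrial threonyl enzyme, came next at 30.2 ± 3.30. FARS2 (3.30 ± 0.464) and VARS2 (0.64 ± 0.0384) were lowest of the 37, and their ranges overlapped neither each other nor the gene above. In cytoplasmic RNA VARS2 was represented by 3 to 6 counts in each control library, so its cytoplasmic values carry little information.

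Between nucleus and cytoplasm of the control, 25 of the 37 members differed, 14 with a higher share in nuclear RNA and 11 with a higher share in cytoplasmic RNA; 65.9% of all genes tested were called, 32.6% higher and 33.3% lower, where higher is higher in the nucleus. By class the counts were 6 higher and 7 lower for cytosolic genes (median log2 nuclear over cytoplasmic 0.07) and 8 higher and 4 lower for mitochondrial genes (median 0.11), beside a median of -0.02 over all genes. IARS2 had 526, 550.0, 473 and 469 CPM in the 4 nuclear libraries and 215, 224, 241 and 241 CPM in the 4 cytoplasmic ones, a log2 ratio of 1.04 (SE 0.07, adjusted p = 1.4e-11). The ranges of these libraries did not overlap. WARS2, the mitochondrial tryptophanyl enzyme, went the other way, with 37.3, 36.7, 35.5 and 34.8 CPM in nuclear and 48.9, 50.0, 55.7 and 58.9 CPM in cytoplasmic RNA (log2 -0.64, SE 0.07, adjusted p = 2.8e-08). PARS2, the mitochondrial prolyl enzyme, was lower in nuclear RNA too, at -0.42 (SE 0.08, adjusted p = 8.9e-05), with 17.01, 15.9, 13.6 and 14.1 CPM against 19.3, 19.8, 18.9 and 18.5 CPM. For both genes every cytoplasmic value lay above every nuclear one. VARS2 had the highest ratio, 4.41, which rests on the few cytoplasmic counts just given (101 to 153 counts in the nuclear libraries and 3 to 6 in the cytoplasmic ones). AARS2 and SARS2, with log2 ratios of 1.01 and 1.04, had ratios close to that of IARS2.

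Control libraries of batches 3 and 4 differed from those of batches 1 and 2, a comparison added after the data were seen. In total RNA all 12 genes of the ATF4-linked list were higher in batches 3 and 4 (median log2 difference 0.56), against 4 higher and 1 lower of the other 8 cytosolic genes (median 0.14) and 4 higher and 1 lower of the 17 mitochondrial genes (0.08); 31.2% of all genes tested were called, 15.0% higher and 16.3% lower. CARS1 had 69.6, 68.6, 131 and 138 CPM in batches 1 to 4 (log2 0.96, SE 0.05, adjusted p = 1.2e-19). MARS1, the methionyl enzyme, had 241, 227, 424 and 426 CPM (log2 0.87, SE 0.04, adjusted p = 3.2e-20), and GARS1, the glycyl enzyme, had 198, 197, 353 and 355 CPM (log2 0.85, SE 0.04, adjusted p = 3.7e-20). In each of these 3 genes batches 1 and 2 form a low pair and batches 3 and 4 a high pair. In nuclear RNA 1 of the 12 ATF4-linked genes was higher and 1 lower (median -0.03), 6 of the other 8 cytosolic genes were lower and none higher (median -0.27), and 4 of the 17 mitochondrial genes were lower and none higher (-0.09), where 26.5% of all genes tested were called, 13.2% higher and 13.3% lower, and without control replicate 3 or control replicate 4 the 12 nuclear calls over all members became 5. In cytoplasmic RNA 9 of the 12 ATF4-linked genes were higher and none lower (median 0.21). Over all members 13 were higher and 8 lower there, so the 8 lower ones were all outside that list. Of all genes tested 26.3% were called, 11.8% higher and 14.4% lower, and VARS2 was not tested. Of 25 ATF4 target genes that are no synthetases, 21 were higher and none lower in total RNA of batches 3 and 4 (median 0.57). What sets the batches apart was not tested. With the batch term each knockout is compared with the control libraries of its own batches, and levels of the IGF2BP1 knockout are not set beside those of the other knockouts.

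**Figure D1:**
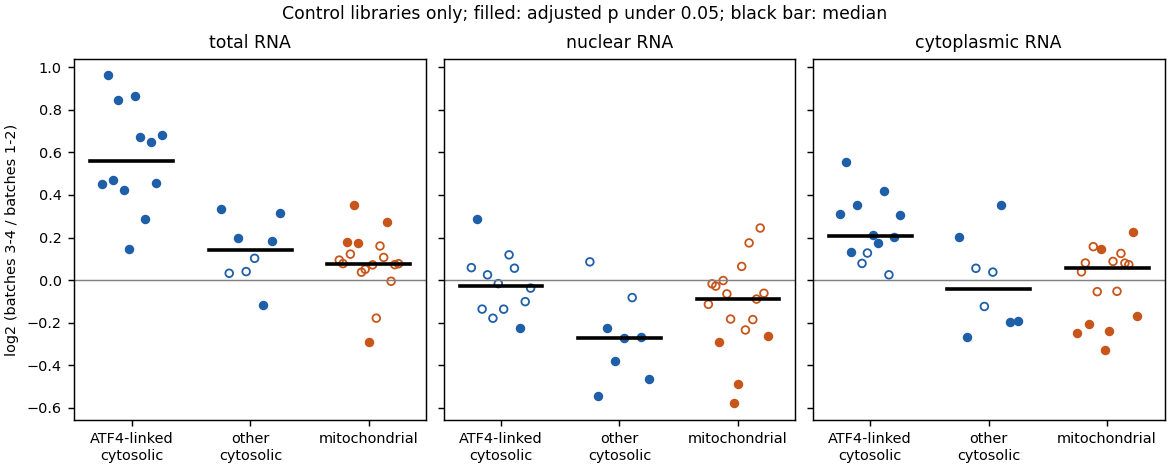
Log2 difference of control libraries of batches 3 and 4 over batches 1 and 2 (vertical axis) for ATF4-linked cytosolic, other cytosolic and mitochondrial synthetase genes, in total, nuclear and cytoplasmic RNA. Each point is a gene, filled at an adjusted p under 0.05, and the black bar is the median; in total RNA the median of the 12 ATF4-linked genes is 0.56 and in nuclear RNA -0.03.

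In the IGF2BP3 knockout both classes of synthetase mRNA were lower and no member rose. In total RNA 29 of 37 members fell and none rose, where 46.9% of all genes tested were called, 23.5% higher and 23.4% lower. Of the cytosolic genes 15 of 20 fell (median log2 fold change -0.49) and of the mitochondrial genes 14 of 17 (-0.54), beside a median of 0.02 over all genes. Nuclear RNA had 12 and 15 lower (medians -0.40 and -0.45; 50.4% of all genes tested were called, 25.1% higher and 25.3% lower) and cytoplasmic RNA 20 and 16 (medians -0.67 and -0.59; 64.7% of all genes tested were called, 31.5% higher and 33.2% lower). In all 3 RNA kinds 12 cytosolic and 13 mitochondrial genes fell, where 18% of the genes tested in all 3 did (3167 of 17587). The summed CPM of the cytosolic genes in total RNA was 4237 ± 103 in the knockout (SD, n = 2) against 4789 to 6457 in the control libraries, and that of the mitochondrial genes 939.7 ± 13.1 against 1314 to 1430.3. With upper quartile scaling the median of all genes moved from 0.02 to 0.15 in total and from 0.02 to 0.19 in cytoplasmic RNA; 25 members still passed the test as lower in total RNA, 24 in nuclear RNA, where 1 rose, and 31 in cytoplasmic RNA. Sums and fold changes are shares of the poly(A) RNA sampled; in such bulk RNA a loss in some cells and less of the mRNA in every cell cannot be told apart.

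**Figure D2:**
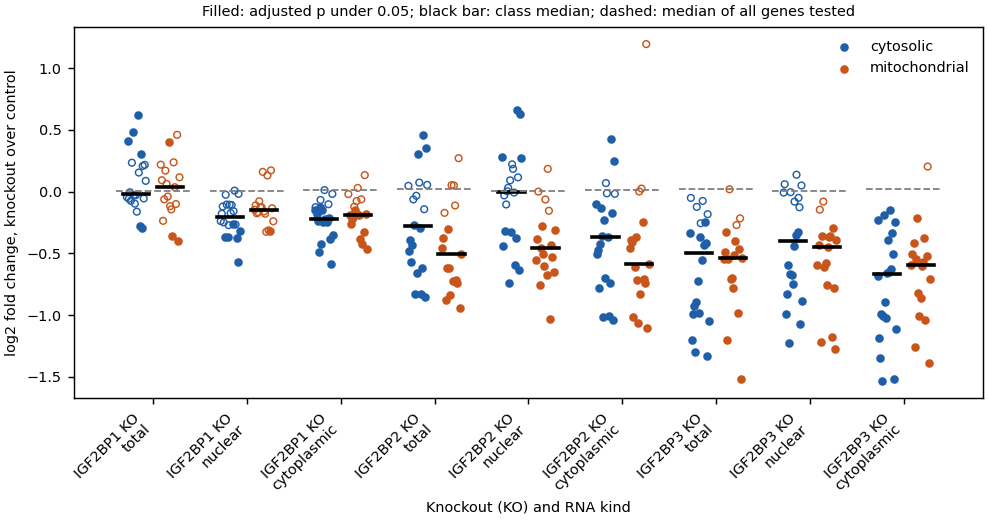
Log2 fold change over control (vertical axis) of the 20 cytosolic (blue) and 17 mitochondrial (orange) synthetase genes for each knockout and RNA kind. Each point is a gene, filled at an adjusted p under 0.05; black bars are class medians and dashed lines the median of all genes tested. In the IGF2BP3 knockout both class medians lie between -0.67 and -0.40, and in the IGF2BP2 knockout the mitochondrial median lies below the cytosolic one in each RNA kind.

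WARS2 fell most in total RNA of the IGF2BP3 knockout (chromosome 1, 119031216 to 119140671, minus strand, GENCODE 29 on GRCh38). It had 16.7 and 16.3 CPM in the 2 knockout libraries and 42.6, 47.8, 47.2 and 47.2 CPM in the 4 control libraries, with a log2 fold change of -1.51 (SE 0.12, adjusted p = 8.6e-07). Every knockout value lay below every control value, as also in nuclear (log2 -1.28, SE 0.11, adjusted p = 3.2e-13) and in the cytoplasmic libraries (log2 -1.39, SE 0.06, adjusted p = 1.8e-19). VARS1, the cytosolic valyl enzyme (chromosome 6, 31777518 to 31795953, minus strand), fell from 207, 188, 245 and 245 CPM to 96.4 and 99.2 CPM in total RNA, -1.33 (SE 0.10, adjusted p = 4.0e-07). By this fit the knockout was at 39.9% of the controls of the same batches. FARSB, the beta subunit of phenylalanyl-tRNA synthetase (chromosome 2, 222570536 to 222656337, minus strand), had 46.6 and 52.2 CPM against 105, 107, 119 and 124 CPM (log2 -1.30, SE 0.09, adjusted p = 3.0e-07). Its partner subunit FARSA had 97.2 and 91.0 CPM against 179, 173, 176 and 182 CPM (log2 -0.93, SE 0.10, adjusted p = 9.6e-06). Neither gene's knockout and control values overlapped. EARS2, the mitochondrial glutamyl enzyme, stood at 31.8 and 30.6 CPM against 66.1, 66.2, 70.6 and 72.9 CPM (log2 -1.20, SE 0.10, adjusted p = 1.0e-06), also without overlap. The mitochondrial phenylalanyl gene FARS2 had a log2 fold change of -0.54 (SE 0.13, adjusted p = 0.0034).

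Of the 8 enzymes of the multisynthetase complex, 6 fell in total RNA of the IGF2BP3 knockout (median -0.58), as did 9 of the 12 cytosolic genes outside it (median -0.48). Of all genes tested 23.4% fell there, and of the 37 members 29 did. These counts stand beside each split below, and differences between the parts were not tested. EPRS1 had 302 and 326 CPM against 445, 459, 618 and 631 CPM (log2 -0.99, SE 0.08, adjusted p = 1.1e-06). KARS1, the lysyl enzyme, fell by a similar amount (log2 -0.98, SE 0.09, adjusted p = 2.1e-06). Values of QARS1 (log2 -0.08, SE 0.08, adjusted p = 0.47) and MARS1 (log2 -0.26, SE 0.11, adjusted p = 0.076) did not pass the test in total RNA. The scaffold genes fell with the enzymes: AIMP2 at -1.10 (SE 0.11, adjusted p = 3.7e-06), EEF1E1 at -1.02 (SE 0.16, adjusted p = 1.6e-04) and AIMP1 at -0.34 (SE 0.10, adjusted p = 0.015), so all 3 passed the test. Split by link to ATF4, 9 of 12 linked genes fell (median -0.39) and 6 of 8 others (median -0.96). Of the 2 structural classes of synthetase, 13 of 19 class I genes and 17 of 19 class II genes fell, with medians of -0.54 and -0.54 (EPRS1 counts in both).

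**Figure D3:**
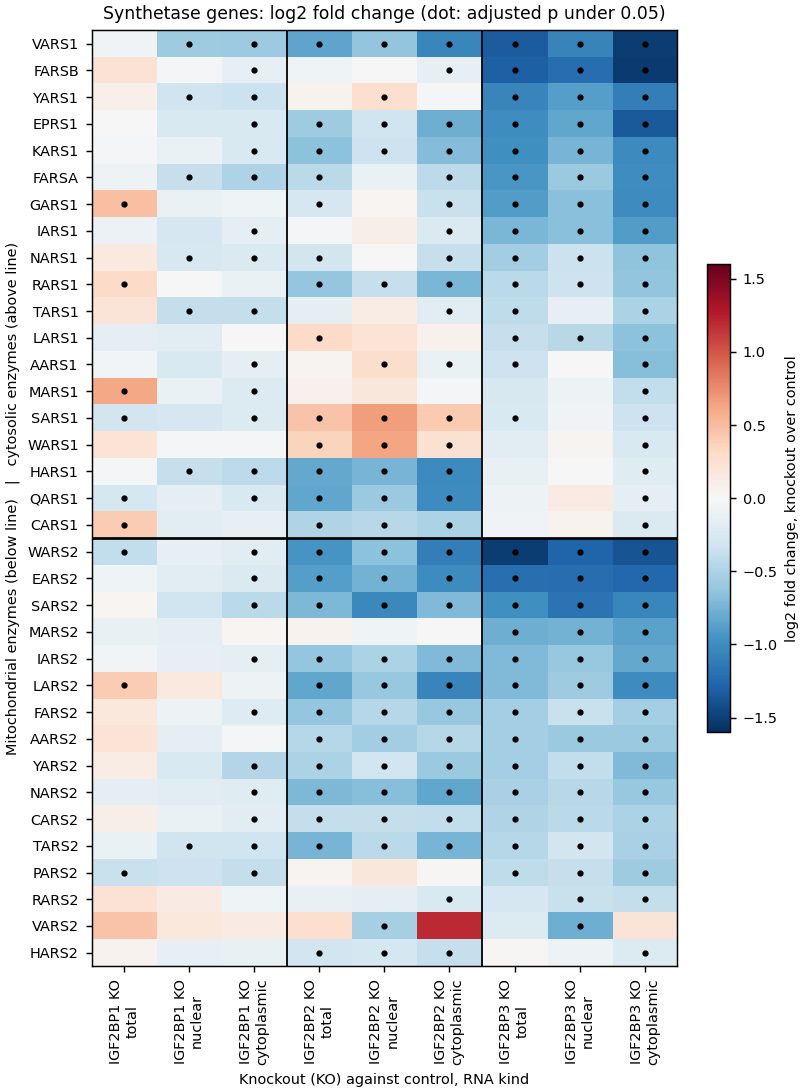
Log2 fold change over control (colour) of 35 synthetase genes in the 3 knockouts and 3 RNA kinds; cytosolic genes are above the line, mitochondrial genes below it, each ordered by the IGF2BP3 knockout in total RNA, and a dot marks an adjusted p under 0.05. VARS1 and WARS2 lead their classes, and SARS1 and WARS1 are red in all 3 columns of the IGF2BP2 knockout.

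In the IGF2BP2 knockout the mitochondrial genes were lower while the cytosolic genes divided. In total RNA 12 of 17 mitochondrial genes fell and none rose (median -0.50), and 11 of 20 cytosolic genes fell and 3 rose (median -0.28), where 47.0% of all genes tested were called, 23.3% higher and 23.7% lower with a median of 0.02. Nuclear RNA had 13 mitochondrial genes lower (median -0.46) and 7 cytosolic genes lower with 4 higher (median -0.0027; 49.7% of all genes tested were called, 24.8% higher and 24.9% lower). Cytoplasmic RNA had 14 mitochondrial genes lower (median -0.59) and 15 cytosolic genes lower with 2 higher (median -0.36; 64.2% of all genes tested were called, 30.9% higher and 33.2% lower). The cytoplasmic count over both classes, 2 higher and 29 lower, became 6 higher and 24 lower with upper quartile scaling, under which the median of all genes moved from 0.01 to 0.16. Without the batch term the cytosolic median in total RNA was 0.02, so the lower cytosolic value there rests on the comparison within batches. The summed CPM of mitochondrial genes in total RNA was 983 ± 2.85 (SD, n = 2) against 1314 to 1430.3 in the 4 control libraries, and that of cytosolic genes 5769 ± 87.6 against 4789 to 6457, the latter within the control range. In total RNA the 26 calls became 17 without IGF2BP2 knockout replicate 1, 15 without its replicate 2 and 15 without control replicate 4, and in nuclear RNA the 24 calls became 15 without control replicate 4.

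In total RNA the 3 cytosolic genes that rose in the IGF2BP2 knockout were all on the ATF4-linked list, which holds 12 of the 20 cytosolic genes. Of the 12 linked genes 3 rose and 4 fell in total RNA (median 0.01), and of the other 8 none rose and 7 fell (median -0.64). Of all genes tested 23.3% were called higher and 23.7% lower, and these shares stand beside each count in total RNA here. The share of linked genes that rose was thus near that of all genes. SARS1, the seryl enzyme (chromosome 1, 109213918 to 109238169, plus strand), had 451 and 457 CPM against 273, 271, 332 and 330.0 CPM in the controls (log2 0.46, SE 0.08, adjusted p = 4.8e-04). WARS1, the cytosolic tryptophanyl enzyme, had 238 and 257 CPM against 141, 141, 190.3 and 197 CPM (log2 0.35, SE 0.08, adjusted p = 0.0037). Both genes rose in all 3 RNA kinds with no overlap with the controls, SARS1 by 0.66 and 0.42 and WARS1 by 0.63 and 0.25 in nuclear and cytoplasmic RNA. LARS1, the leucyl enzyme, rose in total RNA (log2 0.30, SE 0.08, adjusted p = 0.0078), while its cytoplasmic value was 0.07 (SE 0.04, adjusted p = 0.16). The 25 ATF4 target genes that are no synthetases were 13 higher and 4 lower in total RNA (median 0.34), among them ATF3 at 2.71 (SE 0.10, adjusted p = 1.3e-09), TRIB3 at 2.63 (SE 0.10, adjusted p = 1.9e-09) and CHAC1 at 2.05 (SE 0.17, adjusted p = 1.3e-06).

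The genes that fell most in the IGF2BP2 knockout and fell in all 3 RNA kinds were WARS2, EARS2 and VARS1. WARS2 had 23.8 and 25.3 CPM in total RNA (log2 -0.94, SE 0.12, adjusted p = 3.4e-05), between the IGF2BP3 knockout and the control values given before. EARS2 had 40.5 and 37.8 CPM (log2 -0.88, SE 0.10, adjusted p = 1.3e-05) and VARS1 134 and 139 CPM (log2 -0.85, SE 0.10, adjusted p = 1.5e-05). Values of all 3 genes lay below every control library. QARS1, the glutaminyl enzyme (chromosome 3, 49095932 to 49105135, minus strand), had 195 and 196 CPM against 384, 371, 340.1 and 353 CPM (log2 -0.83, SE 0.08, adjusted p = 5.8e-06), and HARS1 had 71.1 and 67.4 CPM against 122, 117, 120.2 and 125 CPM (log2 -0.82, SE 0.10, adjusted p = 1.9e-05). HARS2, the head-to-head neighbour of HARS1, had 36.4 and 33.3 CPM against 37.1, 39.9, 45.2 and 40.9 CPM (log2 -0.31, SE 0.11, adjusted p = 0.03). Both knockout values lay below all 4 controls for HARS1 and, by a small margin, for HARS2. MARS2 and PARS2 passed the test in no RNA kind of this knockout, with log2 fold changes in total RNA of 0.05 and 0.05; both fell in the IGF2BP3 knockout (-0.78 and -0.40).

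Both knockouts came from the same batches and share their control libraries, so they were also compared directly. In total RNA 16 of 20 cytosolic genes were lower and 3 higher in the IGF2BP3 than in the IGF2BP2 knockout (median -0.45), and 5 of 17 mitochondrial genes were lower and 2 higher (median -0.11); 43.3% of all genes tested were called, 21.8% higher and 21.5% lower. Nuclear RNA had 15 lower and 3 higher against 4 lower and none higher (medians -0.46 and -0.11; 48.2% of all genes tested were called, 24.1% higher and 24.1% lower), and cytoplasmic RNA 16 and 4 against 8 and 2 (medians -0.53 and -0.12; 62.7% of all genes tested were called, 31.3% higher and 31.5% lower). Without the batch term the batch 5 libraries of the IGF2BP3 knockout enter the cytoplasmic comparison. The mitochondrial genes were then 1 lower and 3 higher, with a median of 0.12, so their direction depends on whether batch 5 enters. The cytosolic class thus held more differing genes than the mitochondrial class in each RNA kind; the difference between the classes was not tested. The 26 calls in total RNA became 15 and 12 without IGF2BP2 knockout replicate 1 or 2, and 16 and 14 without IGF2BP3 knockout replicate 1 or 2. Of the 12 ATF4-linked genes 11 were lower in total RNA and CARS1 was higher (log2 0.43, SE 0.10, adjusted p = 0.0038). The 25 other ATF4 targets were lower in 18 cases and higher in none (median -0.70).

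FARSB and YARS1 were the members with the greatest lower values in this comparison. FARSB had 46.6 and 52.2 CPM in the IGF2BP3 knockout and 114 and 119 CPM in the IGF2BP2 knockout (log2 -1.24, SE 0.09, adjusted p = 6.2e-07), where the latter did not pass the test against control (log2 -0.06, SE 0.09, adjusted p = 0.59). YARS1, the tyrosyl enzyme (chromosome 1, 32775237 to 32818153, minus strand), had 267 and 284 CPM against 575 and 609 CPM (log2 -1.10, SE 0.08, adjusted p = 6.0e-07), while the controls of the same batches had 567 and 573 CPM. In total RNA, for both genes the IGF2BP2 knockout was near the controls of its batches and the IGF2BP3 knockout below it. QARS1 and HARS1 showed the reverse. QARS1 had 327 and 331 CPM in the IGF2BP3 knockout against 195 and 196 CPM (log2 0.75, SE 0.08, adjusted p = 1.5e-05), and HARS1 109.6 and 115 CPM against 71.1 and 67.4 CPM (log2 0.70, SE 0.10, adjusted p = 7.8e-05). In these genes the IGF2BP2 knockout was the low one, and the IGF2BP3 knockout did not pass the test against control in total RNA, with -0.08 (SE 0.08, adjusted p = 0.47) for QARS1 and -0.12 (SE 0.09, adjusted p = 0.3) for HARS1. MARS2 had the lowest mitochondrial value, -0.83 (SE 0.11, adjusted p = 6.2e-05). Across the 3 RNA kinds FARSB, YARS1, QARS1 and HARS1 kept their direction and passed the test, with cytoplasmic differences of -1.40, -1.09, 0.86 and 0.82. Against control, however, FARSB, QARS1 and HARS1 were called lower in cytoplasmic RNA of both knockouts. YARS1 was called higher than control in nuclear RNA of the IGF2BP2 knockout.

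**Figure D4:**
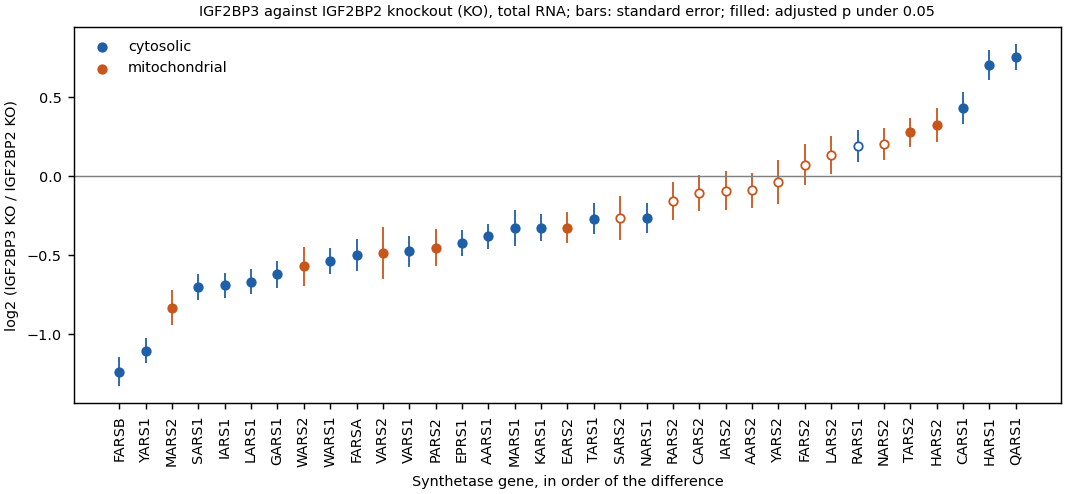
Log2 ratio of the IGF2BP3 over the IGF2BP2 knockout in total RNA (vertical axis) for 35 synthetase genes in order of the difference; bars are standard errors, filled points have an adjusted p under 0.05, blue is cytosolic and orange mitochondrial. Most points at the left are blue, led by FARSB at -1.24, and CARS1, HARS1 and QARS1 stand at the right.

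**Figure D5:**
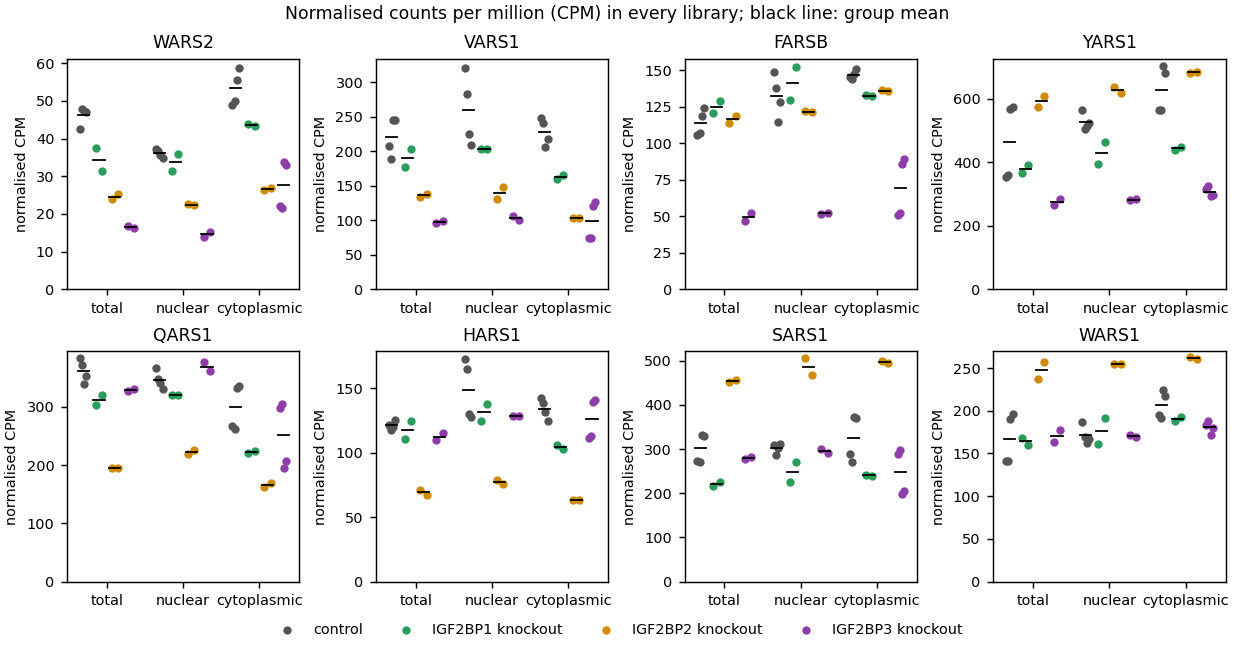
Normalised CPM (vertical axis, from 0) of 8 synthetase genes in every library of total, nuclear and cytoplasmic RNA, by genotype (colour); points of a group are in replicate order and black lines are group means. WARS2 and VARS1 are lower in both the IGF2BP2 and IGF2BP3 knockouts. FARSB and YARS1 are lowest in the IGF2BP3 knockout, QARS1 and HARS1 are lowest in the IGF2BP2 knockout, and SARS1 and WARS1 are high in the IGF2BP2 knockout. The 2 right-hand cytoplasmic points of the IGF2BP3 knockout are batch 5.

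The 2 batch 5 libraries of cytoplasmic IGF2BP3 knockout RNA stood apart from the 2 of batches 3 and 4. They were above them for 16 of 17 mitochondrial genes and overlapped them for VARS2, which had few counts. Over all 17 the ratio of means ran from 0.622 (VARS2) to 2.10, with a median of 1.27. Of the 20 cytosolic genes 11 were above and 8 below, with a ratio over all 20 of 0.535 to 1.70 (median 1.07). The share of all genes above or below was not counted, so these numbers have no background beside them. LARS2, the mitochondrial leucyl enzyme, had 49.8, 50.0, 102 and 108 CPM in replicates 1 to 4, and EARS2 had 29.01, 28.1, 58.3 and 59.5 CPM. Replicates 3 and 4, from batch 5, were about as high as the control libraries for LARS2 (129.9, 125, 105 and 96.6 CPM) and nearer to them for EARS2 (78.2, 80.7, 68.1 and 68.6 CPM). AARS1, the alanyl enzyme, went the other way, with 211, 218, 111 and 118 CPM. FARSB, at 51.0, 51.9, 85.7 and 89.0 CPM, stayed below the control libraries (146, 144, 147 and 151 CPM) in all 4. Because batch 5 has no control, its difference from batches 3 and 4 cannot be told apart from a batch difference. With the batch term its libraries enter the fold changes above only through the spread.

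The IGF2BP1 knockout gave smaller values, and the RNA kinds differed. Cytoplasmic RNA, which is free of the shared library, had 15 of 20 cytosolic genes (median -0.22) and 11 of 17 mitochondrial genes (median -0.19) lower and none higher, where 44.4% of all genes tested were called, 22.5% higher and 21.9% lower. VARS1 had 160.05 and 165 CPM in the knockout; the controls of the same batches had 248 and 240.5 CPM and the other 2 controls 206 and 218 CPM (log2 -0.59, SE 0.04, adjusted p = 8.2e-14). FARSA had 169 and 167 CPM against 240.5, 232, 186 and 203 CPM in the 4 controls (log2 -0.49, SE 0.04, adjusted p = 8.4e-12), and YARS2, the mitochondrial tyrosyl enzyme, 40.3 and 41.2 CPM against 58.6, 54.0, 49.8 and 49.4 CPM (log2 -0.47, SE 0.06, adjusted p = 9.0e-08). In each of these genes both knockout values lay below all 4 controls. Without the batch term 8 members were called in place of 26, 5 cytosolic and 3 mitochondrial genes, all lower. In that fit 12.2% of all genes tested were called higher and 10.7% lower, so far fewer genes were called there too. Without control replicate 1 the number of members called was 17.

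In total RNA of the IGF2BP1 knockout 9 members were called, 5 higher and 4 lower, where 24.2% of all genes tested were called, 10.7% higher and 13.5% lower (medians -0.02 for cytosolic and 0.04 for mitochondrial genes). Without the shared library 7 were called, 3 higher and 4 lower, beside 20.8% of all genes, the medians were -0.07 and -0.16, so that the mitochondrial one changed sign, and 4 genes were called both ways: GARS1, MARS1, QARS1 and SARS1. Leaving out control replicate 1 gave 19 calls, which rest on the shared library alone, because batch 1 then has no control. Without IGF2BP1 knockout replicate 1 the shared library is also the only knockout library left. Leaving out any of the 4 libraries of the other knockouts gave 3 calls, and leaving out control replicate 3 or 4 gave 4. With upper quartile scaling and all libraries the split was 8 higher and 2 lower. MARS1 had 303 and 424 CPM, of which the second is the shared library, and the controls of the same batches had 241 and 227 CPM (log2 0.62, SE 0.11, adjusted p = 0.0018); without the shared library the value was 0.33 (SE 0.08, adjusted p = 0.0029). SARS1 had 217 and 226 CPM where the same controls had 273 and 271 CPM (log2 -0.30, SE 0.08, adjusted p = 0.017), and -0.33 (SE 0.08, adjusted p = 0.0038) without the shared library. MARS1 was thus higher and SARS1 lower in both libraries, but the second is the shared library and may be nuclear RNA. Under its nuclear label MARS1 had 425 CPM, below the 497 CPM of nuclear control replicate 1. SARS1 was lower under that label too, at 226 against 309 CPM. WARS2 had 37.4 and 31.3 CPM (log2 -0.40, SE 0.12, adjusted p = 0.025), the single member lower in total RNA of all 3 knockouts; without the shared library it was not called, at -0.18 (SE 0.10, adjusted p = 0.24). Nuclear RNA had 7 members lower and none higher, where 25.7% of all genes tested were called, 12.7% higher and 13.0% lower (medians -0.21 and -0.15), and 3 lower without the shared library, beside 23.3% of all genes and with medians of -0.09 and -0.12; FARSA and VARS1 were called both ways. Without control replicate 1 the nuclear calls were 3. Without control replicate 2 they were 15, which rest on the shared library alone, because batch 2 then has no control. Without IGF2BP1 knockout replicate 2 the shared library is also the only knockout library left. VARS1 had 203 and 203 CPM in nuclear RNA, the first being the shared library, against 321, 283, 224 and 209.6 CPM in the controls (log2 -0.57, SE 0.10, adjusted p = 1.3e-05), below all of them, and -0.48 (SE 0.11, adjusted p = 0.0014) without the shared library. Lower in all 3 knockouts were 1 member in total RNA (WARS2), 2 in nuclear RNA (TARS2 and VARS1) and 22 in cytoplasmic RNA, 12 of them cytosolic. Of all genes tested 2.88%, 4.38% and 10.3% were. Without the shared library TARS2 was not called in nuclear RNA of the IGF2BP1 knockout, at -0.24 (SE 0.11, adjusted p = 0.1).

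Other genes of the same steps of translation were taken from gene lists; the shares of all genes that fell in total RNA, 23.7% in the IGF2BP2 and 23.4% in the IGF2BP3 knockout, stand beside their counts. For the elongation factor 1 subunits, which deliver charged tRNA to the cytosolic ribosome, 3 of 4 genes were tested; all 3 fell in total RNA of the IGF2BP3 knockout and of the IGF2BP2 knockout (medians -0.70 and -0.48). In the IGF2BP3 knockout EEF1B2 was at -0.79 (SE 0.10, adjusted p = 2.7e-05), EEF1A1 at -0.70 (SE 0.08, adjusted p = 1.4e-05) and EEF1D at -0.66 (SE 0.10, adjusted p = 1.1e-04). Of 8 other cytosolic genes of tRNA charging 1 fell in the IGF2BP3 knockout, and 2 fell and 1 rose in the IGF2BP2 knockout, shares near or below those of all genes. Among 8 genes that act on mitochondrial tRNA charging or modification, 5 fell in the IGF2BP3 and 3 in the IGF2BP2 knockout, and none rose. These included the CCA-adding enzyme TRNT1, at -0.89 (SE 0.10, adjusted p = 1.5e-05) in the IGF2BP2 and -0.57 (SE 0.10, adjusted p = 4.2e-04) in the IGF2BP3 knockout. QRSL1, a subunit of the amidotransferase that makes mitochondrial glutaminyl-tRNA, was at -0.61 (SE 0.11, adjusted p = 5.2e-04) in the IGF2BP3 knockout. Of 9 mitochondrial translation factors 6 fell and 1 rose in the IGF2BP2 knockout and 4 fell in the IGF2BP3 knockout. TUFM, the mitochondrial elongation factor Tu, was lower by nearly the same amount in both (-0.82 and -0.80), and its exchange factor TSFM fell too (-1.13 and -0.76). The ATF4 targets outside the synthetases were mixed in the IGF2BP3 knockout, 6 higher and 12 lower in total RNA (median -0.24), with DDIT3 at 1.503 (SE 0.13, adjusted p = 1.4e-06) and the amino acid transporter gene SLC7A5 at -0.90 (SE 0.09, adjusted p = 6.3e-06).

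The balance between nucleus and cytoplasm was tested as an interaction of compartment and knockout. In the IGF2BP2 knockout 14 of 37 members changed, 10 cytosolic and 3 mitochondrial genes towards the nucleus and VARS2 away from it, where 17.5% of all genes tested were called, 7.77% higher and 9.71% lower (medians 0.30 and 0.11, and 0.03 over all genes). EPRS1 led the cytosolic genes: the knockout had 492 and 447 CPM in nuclear and 282 and 289 CPM in cytoplasmic RNA, and the controls of the same batches 567 and 604 CPM against 507 and 475 CPM, so the log2 ratio changed by 0.42 (SE 0.12, adjusted p = 0.0059). LARS2 changed by 0.42 (SE 0.12, adjusted p = 0.0056), with 95.2 and 98.1 CPM in nuclear and 47.5 and 48.9 CPM in cytoplasmic RNA of the knockout. In both genes the cytoplasmic RNA fell by more than the nuclear RNA. VARS2 at -1.73 (SE 0.60, adjusted p = 0.031) rests on 10 to 18 cytoplasmic counts in the knockout libraries. In the IGF2BP3 knockout 5 members changed, all towards the nucleus, where 10.9% of all genes tested were called, 4.07% higher and 6.80% lower: AARS1 (log2 0.61, SE 0.11, adjusted p = 2.3e-05), EPRS1 (log2 0.45, SE 0.12, adjusted p = 0.0046), VARS1, LARS2 and FARSA. AARS1 had 390.5 and 394 CPM in nuclear RNA, where the controls of the same batches had 391 and 398 CPM, and 211 and 218 CPM in the cytoplasmic libraries of batches 3 and 4, where they had 345 and 343 CPM. The nuclear values thus lay close to the controls and the cytoplasmic values below them. These counts lean on single libraries: the 14 became 1 to 3 without any of the 8 IGF2BP2 knockout libraries and controls of batches 3 and 4 in either fraction, and the 5 became 1 or 2 without any of the corresponding IGF2BP3 libraries and controls. In the IGF2BP1 knockout none of the 37 was called with edgeR, where 4.11% of all genes tested were called, 2.36% higher and 1.76% lower; 2 members had an unadjusted p under 0.05, no other tool was run on this ratio, and the shared library is one of its 2 nuclear libraries.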

How the data were processed

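The authors sequenced poly(A) RNA of 32 libraries and deposited read counts per gene and FPKM values for total, nuclear and cytoplasmic RNA. The submitters' processing notes list STAR, featureCounts, DESeq2 1.44.0 and GRCh38 without roles; whether counting used strand is not given in the sources used here. The deposited counts are raw. The deposited FPKM use the gene's whole span as length in 99.97 to 99.99% of genes with 100 or more reads (within 1%), so levels between genes were instead given as CPM per kilobase of GENCODE 29 exons, which departs from the planned use of FPKM. Rows without a gene name (0.349 to 0.713% of counts) stayed in the fits and count among all genes tested where they passed the filter.

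Counts were fitted with edgeR 4.0.16 in R 4.3.3 (TMM, filterByExpr, batch term, quasi-likelihood test, Benjamini-Hochberg adjustment over all genes), with all libraries of an RNA kind in one fit. Batch 5 holds no control, so its libraries add only to the spread. Biological coefficients of variation were 7.87% in total, 6.88% in nuclear and 2.89% in cytoplasmic RNA. Changes of the nuclear to cytoplasmic ratio came from an interaction term over both fractions. The labels pair libraries by batch; deviations of same-batch libraries correlated at r between -0.08 and 0.02. Alternatives were DESeq2 1.42.0, limma 3.58.1 on log2(FPKM + 1) or log2(FPKM + 0.1), RLE and upper quartile scaling, no filter, no batch term, joined batches, the batches of the knockout alone, and each library left out. The scripts were tested on simulated data.

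The members and gene lists were chosen with earlier results of these data known. Genes were named by size of change among those called alike in the 3 RNA kinds (3 per direction and knockout), by highest and lowest control level, nuclear to cytoplasmic ratio and ratio change (2 each), by the difference between the IGF2BP3 and IGF2BP2 knockouts (2 per direction), and up to 3 per partner list. Values of some single genes are not reported here. Other genes named were chosen after their values were seen.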

Additional observations from a re-analysis of the deposited data

Results flagged for a closer look

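In total RNA of the control, WARS2 had one library apart from the other 3: replicate 1 was at 42.6 CPM and the others at 47.2, 47.2 and 47.8 CPM, a gap of 0.873 of the range, which is above Dixon's 95% critical value for 4 samples. Chance marks about 1 in 20 groups, and 76 groups were looked at.

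Changes in the ratio of nuclear to cytoplasmic RNA passed the interaction test in 14 genes of the IGF2BP2 knockout; those given here had adjusted p from edgeR between 0.0056 and 0.036. Among them the log2 changes were 0.32 for NARS1, 0.32 for RARS1, 0.33 for KARS1, 0.34 for WARS1, 0.35 for AARS1, 0.35 for GARS1, 0.36 for VARS1, 0.37 for QARS1, 0.42 for WARS2, 0.42 for LARS2 and 0.42 for EPRS1. VARS2 alone of the 14 changed towards the cytoplasm, at -1.73, on few cytoplasmic counts. In the IGF2BP3 knockout the changes were 0.34 for FARSA, 0.38 for LARS2, 0.38 for VARS1, 0.45 for EPRS1 and 0.61 for AARS1, with adjusted p from edgeR between 2.3e-05 and 0.037. Positive values are a greater nuclear share. Purity of the fractions was not tested.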

How the results depend on the processing

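Counts of synthetase genes called stayed within 1.5 times the reported value except as follows; the cause was not tested. In the IGF2BP1 knockout the 9 calls in total RNA became 5 with DESeq2, 3 and 2 with limma on log2(FPKM + 0.1) and log2(FPKM + 1), 0 with limma over all genes, 5 with no replicate block and 2 with the knockout's batches alone. Its 7 nuclear calls became 11 with joined batches (chosen after seeing the data), 3 and 3 with the limma pseudocounts, 0 with limma over all genes and 3 with its batches alone, and its 26 cytoplasmic calls became 17 with limma over all genes and 8 with no replicate block. Limma over all genes also gave 11 in total and 10 in nuclear RNA of the IGF2BP2 knockout, and 14 in both total and nuclear RNA between the IGF2BP3 and IGF2BP2 knockouts. With no replicate block the ratio changes fell from 14 to 2 in the IGF2BP2 and from 5 to 1 in the IGF2BP3 knockout.

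Leaving out one library gave, for total, nuclear and cytoplasmic RNA in turn, 3 to 19, 3 to 15 and 17 to 27 calls in the IGF2BP1 knockout, 15 to 28, 15 to 26 and 30 to 32 in the IGF2BP2 knockout, 21 to 32, 21 to 27 and 34 to 36 in the IGF2BP3 knockout, and 12 to 31, 17 to 25 and 24 to 30 between the last 2. Control batches gave 16 to 22, 5 to 15 and 16 to 20, nuclear against cytoplasmic RNA 20 to 26, and the ratio changes 0, 1 to 16 and 1 to 7 for the IGF2BP1, IGF2BP2 and IGF2BP3 knockouts. Where an arm kept 1 library, it was assumed to vary like the other groups. In total and nuclear RNA of the IGF2BP1 knockout the highest of these counts rest on the shared library alone.

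Of 7082 values of called genes under alternatives, 6162 kept direction and call, 909 lost the call and 11 reversed. With no replicate block the reversed log2 values were -0.14 for CARS1 in total RNA of the IGF2BP1 knockout, 0.0897 for GARS1 and 0.0036 for NARS1 in total and 0.0398 for AARS1 in cytoplasmic RNA of the same comparison for IGF2BP2, and, between the IGF2BP3 and IGF2BP2 knockouts in cytoplasmic RNA, -0.0593 for CARS1, 0.36 for EARS2, 0.26 for IARS2 and 0.0519 for WARS2. With upper quartile scaling they were, in cytoplasmic RNA, 0.0466 for AARS1 and 0.0166 for FARSB in the IGF2BP2 and 0.0233 for QARS1 in the IGF2BP3 knockout. Genes called under every alternative numbered 13 of 29 in total, 16 of 27 in nuclear and 29 of 36 in cytoplasmic RNA of the IGF2BP3 knockout, against 9 of 26, 10 of 24 and 24 of 31 in the IGF2BP2 knockout. In the IGF2BP1 knockout they numbered 0 of 9, 0 of 7 and 6 of 26. Between the IGF2BP3 and IGF2BP2 knockouts they were 10 of 26, 13 of 22 and 17 of 30. Of the ratio changes, 0 of 14 in the IGF2BP2 and 1 of 5 in the IGF2BP3 knockout were called under every alternative.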
